A study of Mus musculus with 12 samples.

Results

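The subunits of oxidative phosphorylation were taken as the 13 mRNAs of the mitochondrial chromosome together with 84 nuclear protein-coding genes, found by their mouse symbols (the Nduf, Sdh, Uqcr, Cox4 to Cox8 and Atp5 families). Ndufb1 had no row in the count files, so 96 members of 27179 genes were measured, 13 mitochondrial and 83 nuclear. By symbol alone, 36 nuclear members were assigned to complex I, 4 to complex II, 8 to complex III, 18 to complex IV and 17 to complex V, the ATP synthase. Ndufa4 thus counts in complex I and Cox7a2l in complex IV. The mitochondrial mRNAs encode 7 subunits of complex I, 1 of complex III, 3 of complex IV and 2 of complex V. All 13 mitochondrial and 79 nuclear members had enough reads to be tested. Sdhd, Uqcr11, Cox7b2 and Cox8c did not.

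The study measured whole retinas of mice at 3 and 12 months of age by poly(A) RNA sequencing, with 3 libraries for each of 4 groups: control and Glia-ABCA1KO (a glial knockout of ABCA1, titled GliaKO and called KO here) at each age. The labels do not name the Cre or promoter used, the strain or the sex, and they do not say whether the 3 libraries came from separate animals, so p-values measure the spread between these libraries. The extraction text of every library, controls included, speaks of Astro-KO mice.

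The respiratory chain passes electrons from NADH (complex I) and succinate (complex II) through complex III to oxygen at complex IV, and complex V makes ATP from the proton gradient that results. A few core subunits are encoded by the mitochondrial chromosome itself, which is transcribed inside the organelle as long precursors that are cut into single mRNAs. All other subunits, including the whole of complex II, come from nuclear genes and are imported. In the retina, mitochondria are packed into the inner segments of photoreceptors, and rods and cones are among the most oxygen-consuming cells of the body.

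Each library held between 29027099 and 30438026 counts. Levels are CPM, counts scaled to library size with TMM factors. The 15 rod genes used as a check of the tissue summed to between 60771 and 70981 CPM in all libraries. Abca1 had 20.7, 20.9 and 26.6 CPM in the 3-month controls against 27.5, 27.2 and 24.3 in the 3-month KO libraries, and 27.7 to 32.7 against 27.4 to 42.5 CPM at 12 months. It was not lower in the KO libraries at either age (log2 fold changes of 0.21 ± 0.14 and 0.24 ± 0.14, SE, adjusted p = 0.696 and 0.646 by edgeR's quasi-likelihood test with Benjamini-Hochberg adjustment), so the KO groups rest on their labels, and a count over the whole gene does not show a deletion of some exons in some cells. A pair of libraries stood apart. 3m-Control2 held 4915 CPM of lens genes against 51.9 and 191 in the other 3-month controls, and 12m-GliaKO1 held more of nearly all subunit mRNAs than the other 12-month KO libraries. Every comparison is therefore given with all 12 libraries and without this pair. 12m-GliaKO1 was set apart on the members' own values, and 3m-Control2 was extreme for many members. Medians, standard errors and calls of members without the pair thus follow in part from that choice, and their p-values are a description.

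The 13 mitochondrial mRNAs were counted very unevenly. Per kilobase of exon, the mean over the 12 libraries was 4290 CPM for COX1 (catalytic core of complex IV), 3895 for CYTB (cytochrome b of complex III) and 1940 for ND1. ND5, ND2, ND6 and ND4 (membrane subunits of complex I) followed with 951, 833, 783 and 758 CPM per kilobase. The other 6 mRNAs lay far below: ND3 at 62.0, COX2 at 52.7, COX3 at 20.2, ATP8 at 18.3, ATP6 at 14.9 and ND4L at 13.4 CPM per kilobase. Apart from ATP8, these are the mRNAs nearly all of whose letters the reference holds a second time, in unprocessed pseudogenes on chromosome 1. Between 97.6% and 99.9% of the 100-base windows of COX2, ATP6, COX3, ND3 and ND4L occur letter for letter in another annotated gene. The share was 60.8% for ND4, 30.8% for COX1, 3.19% for ND2 and 0 for ND1, ND5, ND6, CYTB and ATP8. The search covered annotated genes only. The end of ND3 (chrM:9747-9806, GRCm38, plus strand, GENCODE vM21) and of its copy, the pseudogene Gm28438 (chr1:24612775-24612831, minus strand), are printed to show how such reads have 2 places to align. Capitals mark the bases that are the same in both.
ND3: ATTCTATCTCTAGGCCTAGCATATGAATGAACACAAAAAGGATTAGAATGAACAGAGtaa
Gm28438: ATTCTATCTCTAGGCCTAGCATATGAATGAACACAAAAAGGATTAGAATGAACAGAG
Over their whole shared length of 345 bases the sequences differed at 1 base. The sources used here do not give the way reads with several alignments were counted. The levels of COX2, ATP6, ATP8, COX3, ND3 and ND4L are therefore uncertain. The results below rest most firmly on ND1, ND2, ND5 and CYTB, which are well covered and have little or no copy. ND6 has no copy either, but it alone lies on the minus strand, and the strand setting of the counting is not stated. Its counts may therefore hold reads of the other strand, and its values may not be independent of its neighbours. Among the nuclear members, 17 of 83 shared some windows with another gene, mostly processed pseudogenes, and the share was highest for Atp5l (61.3%).

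The best-covered nuclear subunits were far lower per kilobase than the leading mitochondrial mRNAs. Cox6a1, a subunit of complex IV, had 400 CPM per kilobase, Atp5b (catalytic beta subunit of the ATP synthase) 290, Cox8a 247, Atp5a1 (alpha subunit) 200 and Cox4i1 187. In complexes I to III, Ndufv1 (a core subunit of the peripheral arm of complex I) had 72.8, Sdha (the flavoprotein of succinate dehydrogenase) 89.8 and Uqcrq 70.0 CPM per kilobase. The lengths used are the union of the exons of all annotated transcripts. For Atp5b this is 4237 bases against 1916 for its longest coding transcript, for Cox6a1 702 against 571, and for COX1 1545 in both. The nuclear values are thus lowered unequally, and the order among nuclear members is not firm.

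The summed level of the mitochondrial mRNAs was 17191, 10220 and 17348 CPM in the 3-month controls and 16780, 19026 and 17626 CPM in the 3-month KO libraries. At 12 months it was 14738, 15917 and 16655 CPM in controls and 23335, 17594 and 18527 CPM in KO libraries. All 3 KO libraries of 12 months were above all 3 controls of that age, while at 3 months the groups overlapped with 3m-Control2 lowest. In whole retina, fewer cells of a type and less RNA per cell cannot be told apart. The nuclear members summed to 7515, 8599 and 7683 CPM in 3-month controls, 7574, 7485 and 7608 in 3-month KO, 8250, 8084 and 8029 in 12-month controls and 8625, 7715 and 7306 in 12-month KO libraries. The nuclear sum varied little, with its 2 highest values in the libraries that stand apart, 12m-GliaKO1 and 3m-Control2. The ratio of the mitochondrial to the nuclear sum was 1.79, 1.97 and 2.07 in the 12-month controls and 2.71, 2.28 and 2.54 in the 12-month KO libraries, without overlap. At 3 months it was 2.29, 1.19 and 2.26 in controls against 2.22, 2.54 and 2.32 in KO libraries.

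**Figure D1:**
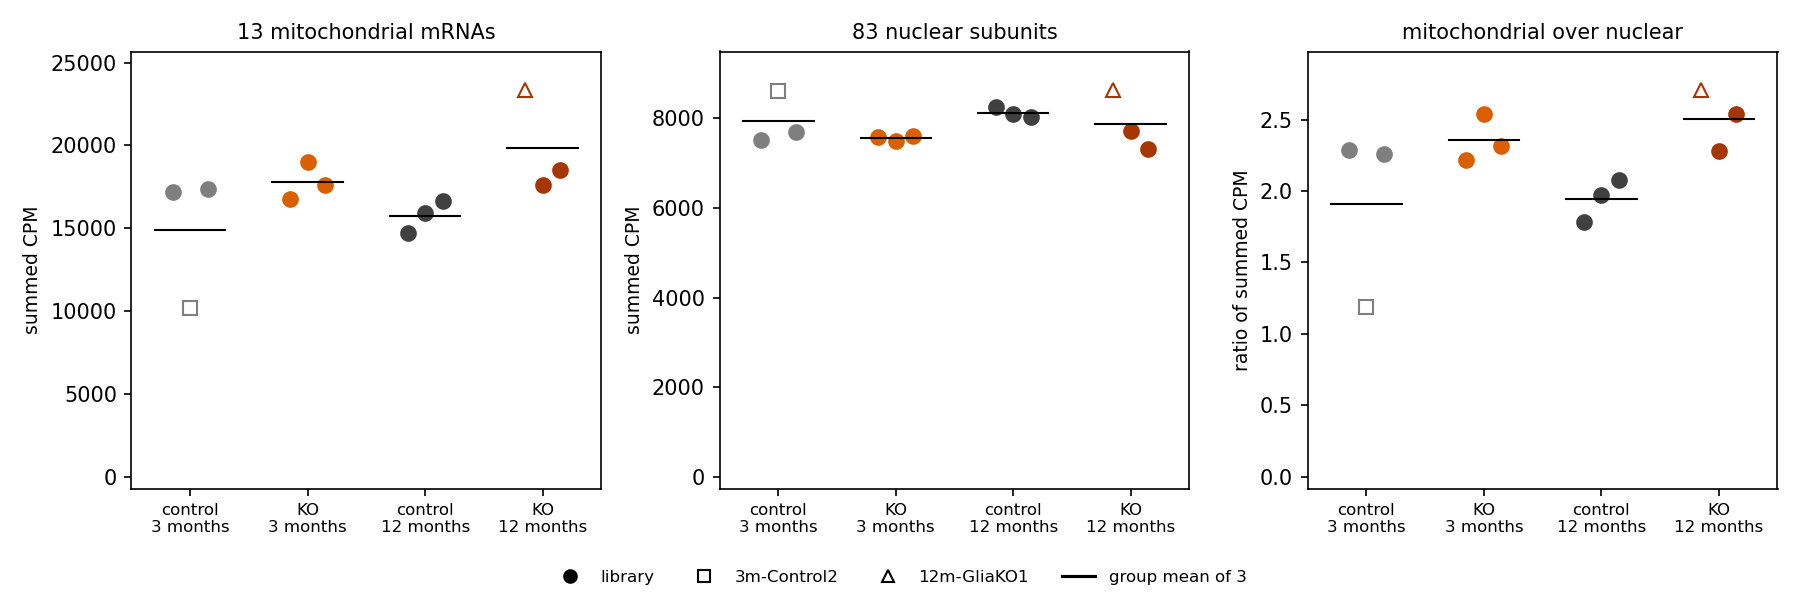
Summed CPM of the 13 mitochondrial mRNAs (left), of the 83 nuclear subunits (middle) and their ratio (right) in each library, by group. Points are libraries, lines are means of 3, and open symbols mark 3m-Control2 (mitochondrial sum of 10220, the lowest) and 12m-GliaKO1 (23335, the highest).

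In 3m-Control2 all 13 mitochondrial mRNAs were the lowest of their group. ND6, the subunit encoded on the light strand, had 441, 96.9 and 394 CPM in the 3-month controls, and ND2 had 855, 295 and 841. Their values in 3m-Control2 were the lowest of all 12 libraries. Against the mean of the other 2 controls the differences on the log2 scale ran from -2.10 (ND6) to -0.50 (CYTB), with a median of -1.01, while the 79 nuclear members tested had a median of 0.20 and 53 of them were the highest of the group. Over the genes with enough counts this library also stood apart. Chi-square per degree of freedom was 43.1 and 41.9 in its pairs, against 4.19 between the other 2 controls. The share of all genes highest or lowest in it is not given here, so these counts are no result about the members alone. Within each set the members' differences rose with G and C. Across members, Spearman's rho between the difference and the percentage of G and C in the exons was 0.70 over the 13 mitochondrial and 0.55 over the 79 nuclear genes, which share 1 library and are given as a description. In the other libraries rho ran from -0.77 (3m-Control1) to 0.42 (3m-GliaKO2) over the mitochondrial genes. Over the nuclear genes it ran from -0.51 (3m-Control3) to 0.40 (12m-Control1). Each difference is taken against the other 2 libraries of the group, so values within a group are tied. The mitochondrial mRNAs had 31.9% to 41.1% G and C and the nuclear ones 37.0% to 63.3%. Inside the mitochondrial range, the nuclear members Atp5pb, Cox7c, Atp5l, Ndufa4 and Uqcrb differed by -0.09, -0.07, 0.20, -0.35 and -0.29 in 3m-Control2. All lay above the 13 mitochondrial mRNAs, so at like G and C the sets stood apart. The mitochondrial rRNAs, a separate class of transcripts from the same chromosome, summed to 403 CPM in 3m-Control2 against 974 and 947 in the other 3-month controls. The part of the lens RNA or of base composition in these differences was not tested.

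12m-GliaKO1 differed in another way. All 13 mitochondrial mRNAs (median 0.43 on the log2 scale against the other 12-month KO libraries) and 71 of 79 nuclear members (89.9%, median 0.24) were the highest of their group, where 39.1% of all genes tested were highest in this library. The nuclear members at the top included 34 of 36 of complex I, 3 of 3 of complex II, 7 of 7 of complex III, 11 of 16 of complex IV and 16 of 17 of complex V. Here rho with base composition was 0.05 in the mitochondrial and -0.23 in the nuclear set. Mitochondrial rRNA was 1643 CPM against 1185 and 1336, and genes of the mitochondrial ribosome summed to 2246 CPM against 1969 and 1885.

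**Figure D2:**
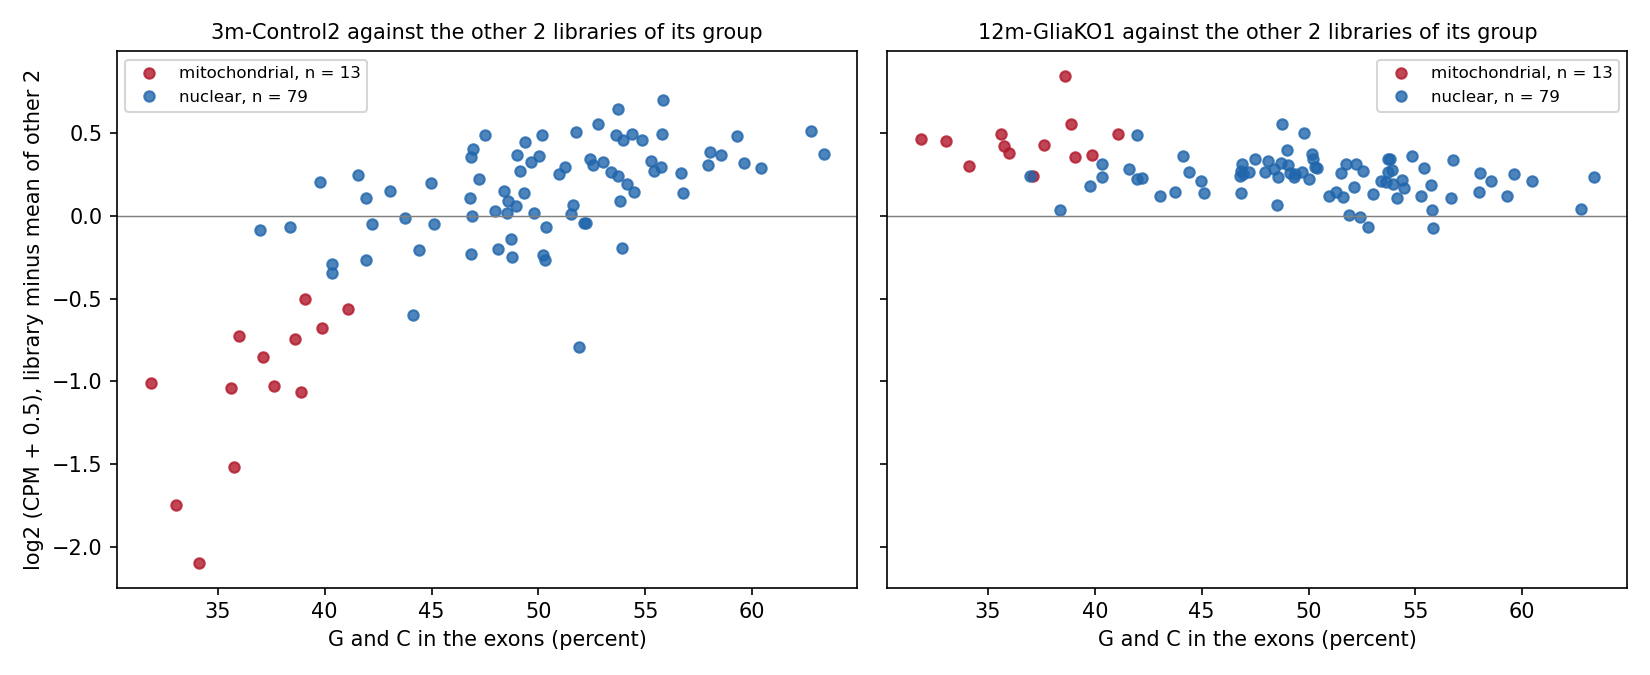
Difference of each tested member between 1 library and the mean of the other 2 of its group (log2 of CPM + 0.5) against the percentage of G and C in its exons, for 3m-Control2 (left) and 12m-GliaKO1 (right). In 3m-Control2 mitochondrial members lie between -2.10 and -0.50 and nuclear ones around 0.20, rising with G and C, while in 12m-GliaKO1 all 13 mitochondrial members and most nuclear ones lie above 0.

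**Figure D3:**
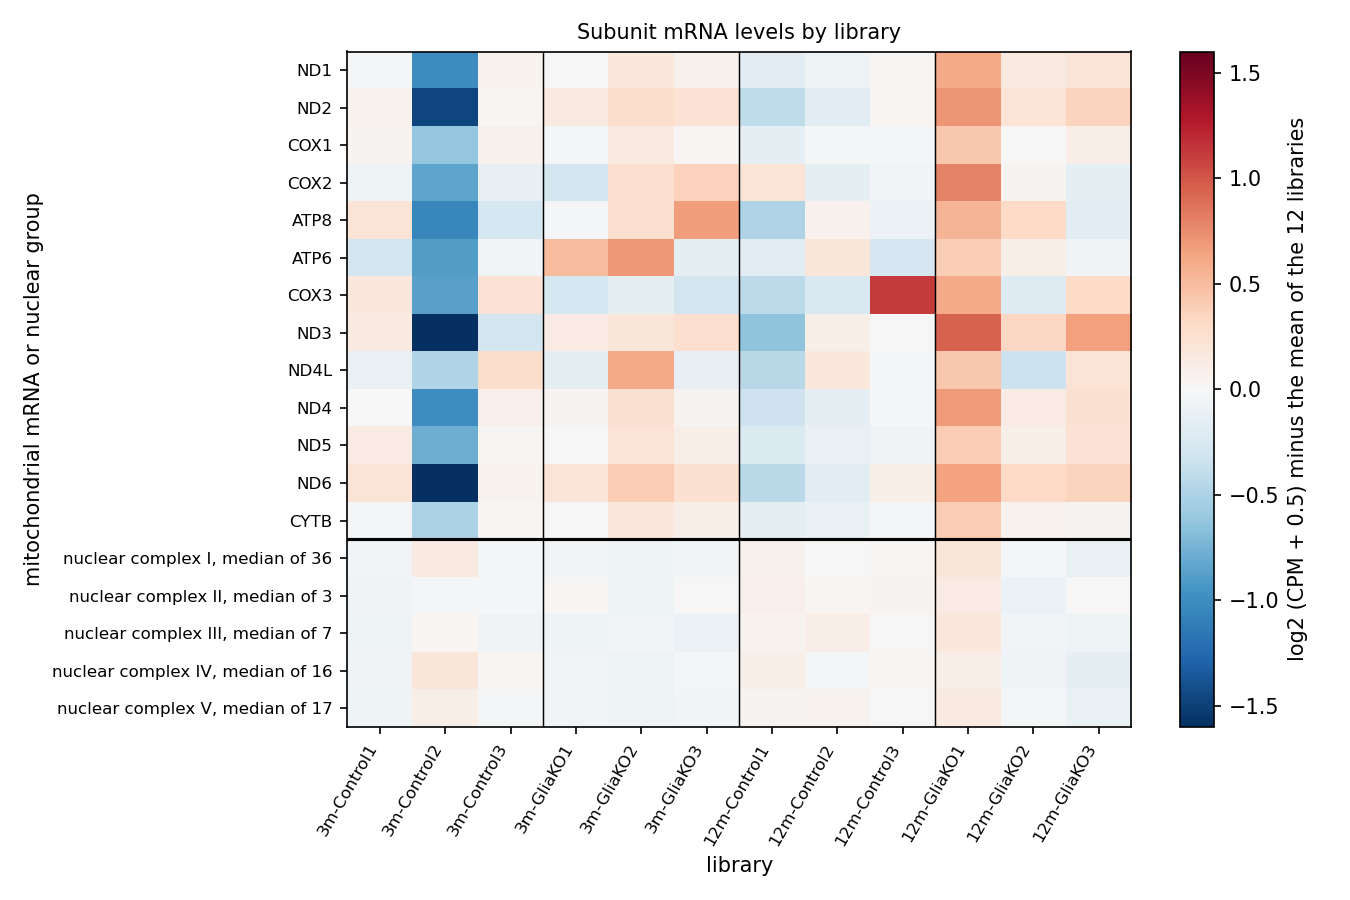
Level of each mitochondrial mRNA and median of the nuclear members of each complex in the 12 libraries, as log2 of CPM + 0.5 minus the mean of the libraries. The column of 3m-Control2 is low and that of 12m-GliaKO1 high for all 13 mitochondrial mRNAs, and the nuclear rows vary little.

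At 3 months, KO was compared with control to ask whether the subunits differ before old age. With all libraries the 13 mitochondrial mRNAs had a median log2 fold change of 0.34 (KO over control), 12 positive, and the 79 nuclear members tested had a median of -0.08, 26 positive and 53 negative, beside 0.00 over all 16475 genes tested. CYTB (0.24 ± 0.12) and ND1 were among the positive ones, and COX3 was the negative one (-0.17 ± 0.47). ND2 was 908, 999 and 962 CPM in the KO libraries against 855, 295 and 841 in controls. It was the single mitochondrial mRNA whose groups did not overlap (7.97% of all genes did not overlap with KO higher), with a fold change of 0.53 ± 0.36 (SE) and adjusted p = 0.711 by edgeR's quasi-likelihood test with Benjamini-Hochberg adjustment. No mitochondrial mRNA passed by edgeR, DESeq2 or limma-voom on all libraries, and 2 had an unadjusted edgeR p under 0.05 (15.4%, beside 7.50% of all genes). The single nuclear member called by edgeR was the complex IV isoform Cox6a2, which entered the test only through the 3-month controls, where it is high, so the call is no result for the nuclear set and its values are described below without a test. In this comparison 0.225% of all genes were called (0.0668% higher and 0.158% lower). The groups of 4 nuclear members did not overlap with KO higher and those of 11 with KO lower, beside 7.97% and 7.66% of all genes.

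Without the pair of libraries that stand apart, the 3-month medians shrank to 0.09 for the mitochondrial and -0.00 for the nuclear set. ND1 had 1789 and 1878 CPM in the 2 remaining controls and 1816, 2023 and 1892 in KO, a log2 fold change of 0.06 ± 0.05 in place of 0.33 ± 0.25. COX1 had 6778 and 6894 CPM against 6394, 7235 and 6655, with -0.02 ± 0.05 in place of 0.18 ± 0.16. The values of ND1 and COX1 in the 2 remaining controls lay inside or next to the range of the KO libraries, and their standard errors were much smaller. 3m-Control2 was the lowest of its group for every mitochondrial mRNA. The smaller errors, and the calls of ND2 and COX3 below, follow in part from leaving it out. Besides Cox6a2 no member was called in this fit by edgeR or by DESeq2, where 0.349% and 0.379% of all genes were, and at an unadjusted edgeR p under 0.05 there was 1 mitochondrial mRNA. When the fit held only the 5 remaining 3-month libraries, ND2 was called higher (0.17, adjusted p = 0.00761 by edgeR with Benjamini-Hochberg adjustment) and COX3, whose reads have a second place to align, lower (-0.45, adjusted p = 0.0272), where 0.933% of all genes were called. DESeq2 on these 5 libraries called the same 2 mitochondrial mRNAs, with 0.803% of genes called.

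At 12 months, 12 of 13 mitochondrial mRNAs had a positive log2 fold change in KO, and whether any of them passed depended on the tool and on the libraries in the fit. ND1 was 2748, 2003 and 2084 CPM in KO against 1603, 1713 and 1826 in controls. ND5 was 2254, 1815 and 2001 CPM against 1445, 1565 and 1642. CYTB was 5850, 4568 and 4567 CPM against 3990, 4104 and 4374. For each of these every KO library was above every control, with 12m-GliaKO1 the highest. ND2 was 1338, 952 and 1046 CPM in KO against 617, 725 and 837 in controls. ND6 was 589, 473 and 484 CPM against 279, 335 and 404. ND4 was 1617, 1104 and 1195 CPM against 805, 918 and 997. These again did not overlap, and neither did ND3 (38.4, 24.9 and 31.3 CPM against at most 21.0) or COX1 (8794, 6587 and 7052 CPM against 5922, 6473 and 6473), so 8 of 13 did not overlap with KO higher, where 8.32% of all genes did so. The set median was 0.38 with 12 of 13 positive, against -0.05 for the nuclear members (27 positive, 52 negative) and -0.00 over all genes. In edgeR's fit over the 12 libraries the log2 fold changes were 0.41 ± 0.25 for ND1 (adjusted p = 0.672 after Benjamini-Hochberg adjustment), 0.38 ± 0.20 for ND5 (0.618), 0.62 ± 0.36 for ND2 (0.666) and 0.27 ± 0.12 for CYTB (0.574). No member of either set passed, where 0.212% of all genes were called (0.127% higher and 0.085% lower). The groups of 2 nuclear members did not overlap with KO higher and those of 2 with KO lower, where 8.33% of all genes did not overlap with KO lower. At an unadjusted edgeR p under 0.05 there were 0 mitochondrial and 1 nuclear member (8.70% of all genes), and DESeq2 and limma-voom on all 12 libraries also called 0 (0.771% of genes by DESeq2).

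In the authors' deposited table for the same comparison, 6 of 13 mitochondrial mRNAs had an adjusted p below 0.05, where 0.636% of the 17139 genes with a value did. All 6 encode complex I subunits, and ND4L was the single one of the 7 that did not pass. The authors' deposited table gives ND2 a log2 fold change of 0.45 (adjusted p = 0.00027), ND6 0.45 (0.00027) and ND3 0.47 (0.0019). It gives ND4 0.39 (0.0050), ND5 0.32 (0.0066) and ND1 0.32 (0.027) in the authors' deposited values. In the authors' deposited table CYTB had 0.22 (adjusted p = 0.287), COX1 0.20 (0.387), and none of the 79 nuclear members with a value passed (smallest adjusted p = 0.523). DESeq2 with shrunken fold changes, run here on the 6 libraries of 12 months, gave the authors' fold changes to within 0.01 for 99.1% of 21160 genes and called all of their 109 genes and 2 more. The authors' deposited table thus holds 12m-GliaKO1 and no 3-month library. DESeq2 on the same 6 libraries without shrinkage and after the filter on low counts called 5 mitochondrial mRNAs (ND1, ND2, ND4, ND5 and ND6), with 0.729% of genes called, and edgeR on these 6 libraries called 0, with 0.193%.

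Leaving out 3m-Control2 and 12m-GliaKO1 moved both sets at 12 months. The mitochondrial median fell to 0.25 with 11 of 13 positive, and the nuclear median went to -0.12 with 71 of 79 negative (49.8% of all genes were positive). 12m-GliaKO1 was set apart on the values of these same members, so the nuclear shift without it follows in part from that choice. Markers of bipolar cells moved the same way: without the pair 11 of 13 were negative (median -0.15) and 4 were called lower by edgeR (among them Grm6 and Pcp2, named after their values were seen), and with all libraries the list summed to 2462, 2505 and 2501 CPM in 12-month controls against 2163, 2300 and 2289 in KO, without overlap. The list of amacrine and horizontal cells was also lower in KO without overlap (1668, 1620 and 1660 against 1604, 1612 and 1594 CPM). So was the astrocyte list (946, 890 and 905 against 883, 844 and 819 CPM). The microglia list was higher in KO without overlap (64.2, 64.0 and 62.4 against 70.1, 64.7 and 66.6 CPM). So was the list of the corneal surface (2.77, 2.46 and 2.13 against 7.40, 10.7 and 7.03 CPM). The lists of rods, cones, ganglion cells, Muller glia, endothelium, pericytes, pigment epithelium, lens, skeletal muscle and blood overlapped. The part of these cell types and tissues in the nuclear shift was not tested. In edgeR over the 10 remaining libraries 2 mitochondrial mRNAs were called higher, ND1 (0.25 ± 0.05, adjusted p = 0.00384 after Benjamini-Hochberg adjustment) and ND5 (0.30 ± 0.06, adjusted p = 0.0143), and 4 nuclear members were called lower. In this fit 2.53% of all genes were called (1.06% higher and 1.47% lower). The pair left out held the lowest and the highest mitochondrial sum. The SE of ND1 was 0.25 with all libraries, and its smaller SE and these calls follow in part from leaving the pair out. Uqcrq, a small subunit of complex III, had 116 and 110 CPM in the remaining KO libraries against 139, 137 and 125 in controls (-0.24 ± 0.06, adjusted p = 0.0126). Cox7b, a small subunit of complex IV, had 38.4 and 34.5 CPM against 46.5, 43.4 and 44.0 (-0.29 ± 0.07, adjusted p = 0.0269). The other 2 were Cox7a2l, which takes part in joining complexes III and IV into supercomplexes (-0.27 ± 0.07, adjusted p = 0.0374), and Atp5d, the delta subunit of the ATP synthase (-0.23 ± 0.06, adjusted p = 0.0468). In 12m-GliaKO1 itself Uqcrq was 146 and Cox7b 51.2 CPM, above all 3 controls, so with this library the groups overlap.

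By complex, the nuclear medians at 12 months without the pair were -0.11 in complex I (3 of 36 positive), -0.06 in complex II (0 of 3), -0.14 in complex III (0 of 7), -0.14 in complex IV (4 of 16) and -0.12 in complex V (1 of 17). The mitochondrial subunits of complex I had a median of 0.34, all 7 positive. In complex I the medians of the mitochondrial and the nuclear subunits thus stood on opposite sides of 0 in this fit. 12m-GliaKO1 was set apart on the values of these same members, so the nuclear side follows in part from that choice. In the authors' deposited table, which holds 12m-GliaKO1, the shrunken nuclear median of complex I was -0.02, with 16 positive and 20 negative. The mitochondrial median of complex I there was 0.39, with all 7 positive. Of the mitochondrial subunits of complex IV, COX1 had 0.12 ± 0.05, and COX2 (-0.07) and COX3 (-0.26), whose levels are uncertain, were negative. CYTB of complex III had 0.14 ± 0.05. Leaving out 12m-GliaKO1 alone gave nearly the same medians (0.25 and -0.12) but called no member by edgeR, where 0.263% of genes were called. DESeq2 on the 10 libraries called 5 mitochondrial mRNAs higher (ND1, ND2, ND4, ND5 and ND6) and 8 nuclear members lower, with 5.16% of genes called. Besides the 4 above, these were Atp5b, Ndufb10, Ndufv3 and Cox5a, from -0.21 to -0.12. With only the 5 remaining libraries of 12 months, edgeR called ND1, ND4 and ND5 higher and no nuclear member, with 0.921% called, and DESeq2 called the same 3 and Uqcrq lower, with 1.99%.

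**Figure D4:**
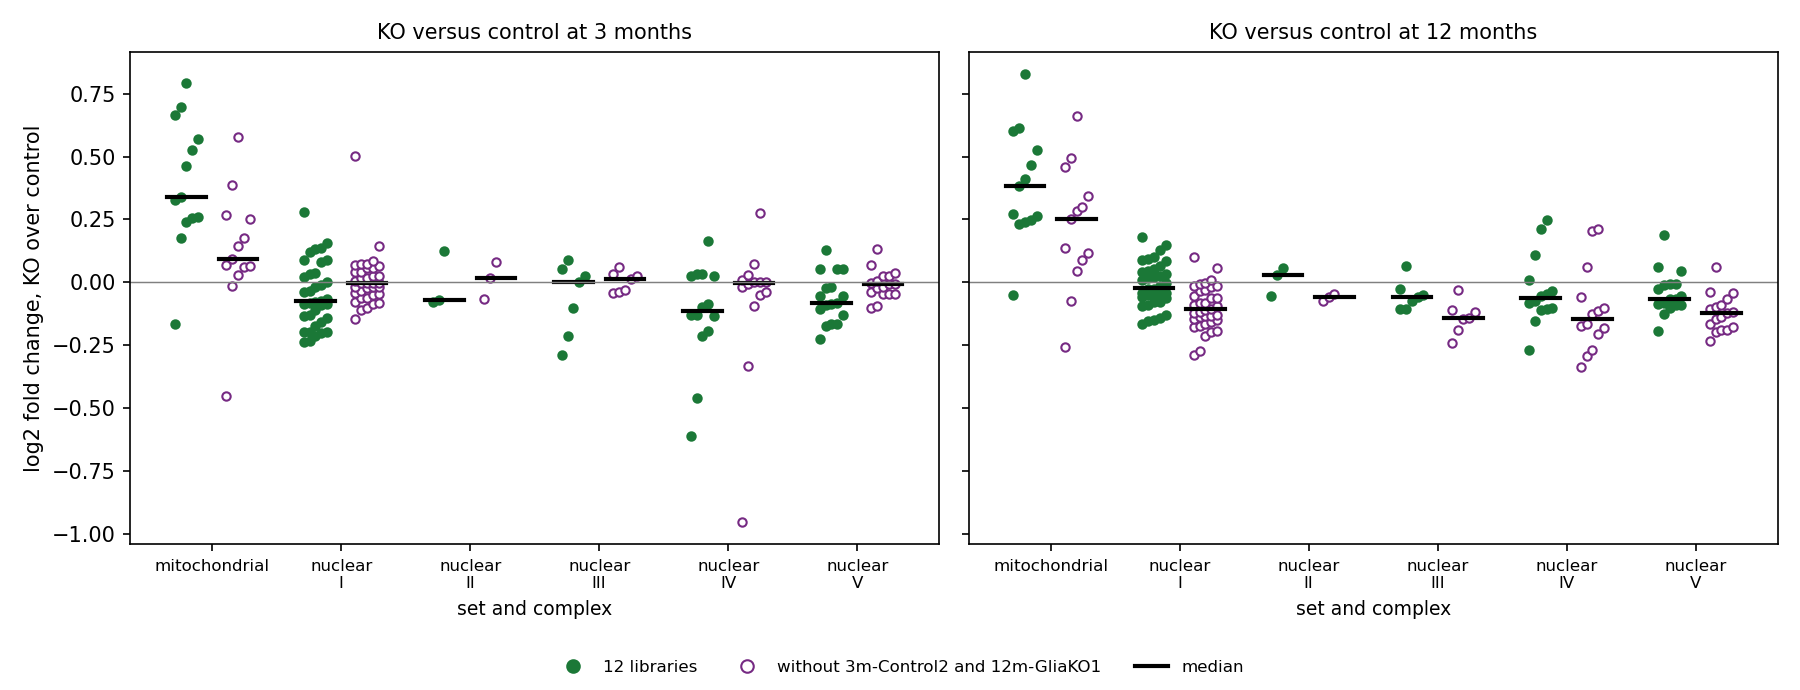
Log2 fold change of each tested member, KO over control, at 3 months (left) and 12 months (right), for the mitochondrial set and the nuclear members of complexes I to V. Filled points come from all 12 libraries and open points from the fit without 3m-Control2 and 12m-GliaKO1, bars are medians of the points shown, and Cox6a2 and Cox8b are left out. Mitochondrial medians are 0.34 and 0.09 at 3 months and 0.38 and 0.25 at 12 months.

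No member differed between the ages in its KO effect by edgeR's test of the interaction. Its median was 0.07 for the mitochondrial and 0.04 for the nuclear set, and -0.01 over all genes, of which 0.127% were called (0.109% higher and 0.0182% lower). At an unadjusted edgeR p under 0.05 there were 0 mitochondrial and 4 nuclear members (5.06% of those tested, near the 4.33% of all genes). Without the pair of libraries the medians were 0.19 and -0.10. ND5 had 0.27 ± 0.09 there (adjusted p = 0.269 by edgeR with Benjamini-Hochberg adjustment), so a larger effect at 12 than at 3 months was not shown for it.

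Complex IV has tissue isoforms, and these gave the largest differences among all members. Cox6a2, Cox7a1 and Cox8b replace Cox6a1, Cox7a2 and Cox8a in heart and skeletal muscle. Cox6a2 (chr7:128205435-128206366, minus strand) had 3.06, 4.59 and 2.88 CPM (90, 137 and 86 counts) in the 3-month controls. It had 0.135, 0.411 and 0.304 CPM in the 3-month KO, 0.300, 0.135 and 0.338 in the 12-month controls and 0.0661, 0.202 and 0 in the 12-month KO libraries. All 3 of the 3-month controls were far above all 9 other libraries. Cox6a2 passed the filter on low counts only through that group, so it had to differ, and these values are a description with no test. Cox8b (chr7:140898942-140900446, minus strand) had 3.43, 4.32 and 1.74 CPM in the 3-month controls against 1.38, 1.27 and 0.846 in KO and 1.07, 0.471 and 1.05 in 12-month controls. Its 3-month controls lay above the 3-month KO and the 12-month control libraries without overlap. Cox8b passed the filter through other groups as well. It fell with age in control (-1.87 ± 0.37, adjusted p = 0.00601 by edgeR with Benjamini-Hochberg adjustment, where 2.11% of all genes were called, 1.4% higher and 0.71% lower), and in KO against control at 3 months it had -1.44 ± 0.36 (adjusted p = 0.205 by edgeR), which DESeq2 called (adjusted p = 0.0342, with 0.382% of genes called). Cox7a1 had 4.21, 6.0 and 5.19 CPM in 3-month controls and between 2.81 and 4.53 CPM elsewhere, and passed edgeR's test in no comparison. On only the 3-month libraries, Cox8b was called by DESeq2 (0.408% of genes) and not by edgeR (0.163%).

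**Figure D5:**
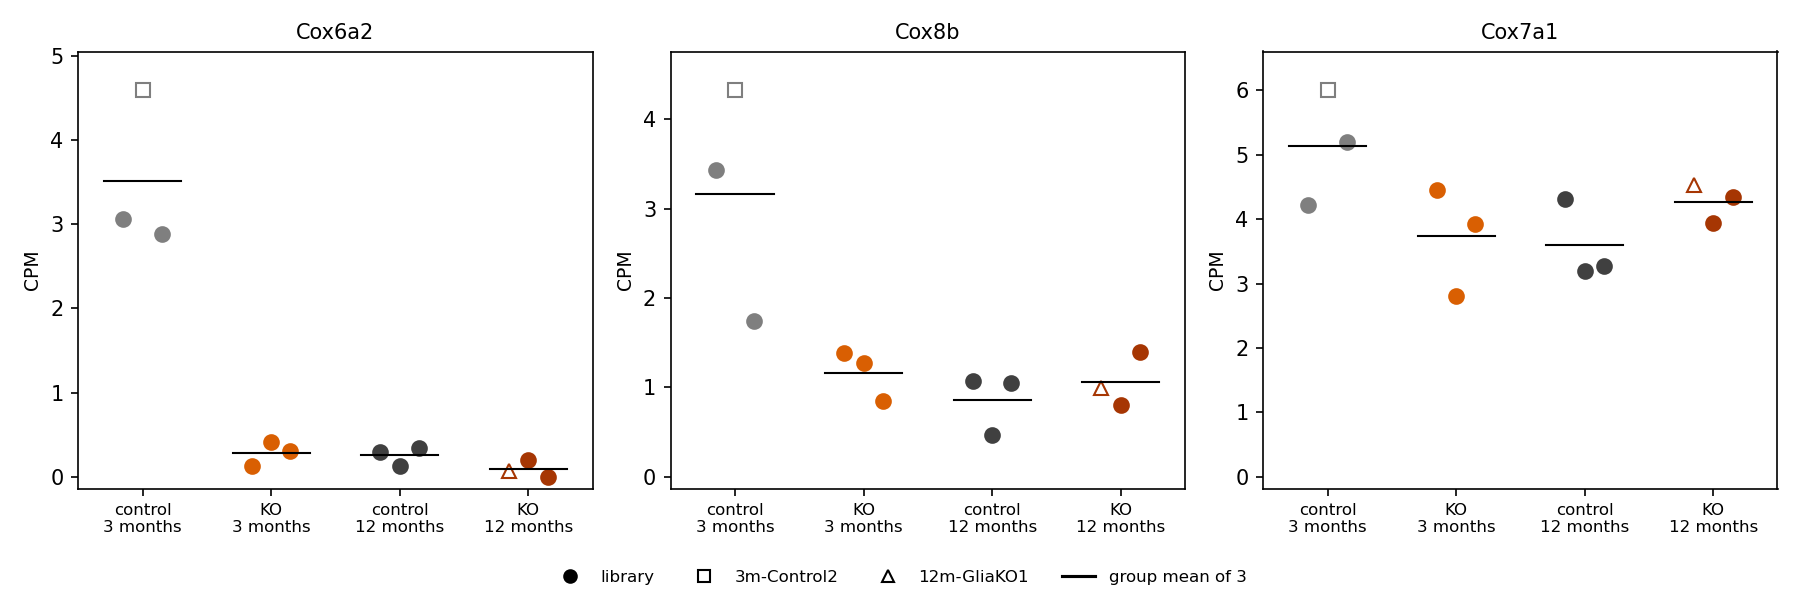
CPM of the muscle isoforms Cox6a2, Cox8b and Cox7a1 in each library by group, with means of 3 as lines and open symbols for 3m-Control2 and 12m-GliaKO1. The 3-month controls hold 2.88 to 4.59 CPM of Cox6a2 against at most 0.411 in the other 9 libraries.

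Markers of skeletal muscle moved with these isoforms. Without the 3 members, the muscle list summed to 201, 203 and 190 CPM in the 3-month controls and to between 76.5 and 89.1 CPM in the other 9 libraries. Tnnc2, a contractile gene of fast muscle, had 12.9 ± 1.43 CPM in the 3-month controls and group means of 0.302 to 0.341 CPM elsewhere, and Acta1, the skeletal muscle actin, 15.9 ± 2.12 against 2.19 to 2.56 CPM (SD, n = 3). Like Cox6a2, such genes are high in that group alone and are given without a test. The part of muscle RNA in the isoforms' difference was not tested. The common counterparts Cox6a1 and Cox8a are read far more than Cox6a2 and Cox8b. Cox6a1 had 261, 380 and 271 CPM in 3-month controls against 260, 248 and 280 in KO, and Cox8a had 138, 188 and 153 against 145, 143 and 149. Their highest values were those of 3m-Control2, and the other values of the groups overlapped. Cox4i1, the common form of the largest nuclear subunit, had 280, 371 and 287 CPM in 3-month controls against 278, 277 and 266 in KO, and its lung form Cox4i2 had 20.1, 22.4 and 20.6 against 21.7, 22.4 and 20.0. Cox7a2 was nearly unread (10 to 34 counts in a library), and so were Sdhd and Uqcr11. In the authors' deposited table Cox7a2 had a mean normalized count of 20.1, below the 116 of its muscle form Cox7a1.

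The promoters of a common and a muscle isoform are printed to show how they differ (RefSeq, GRCm38.p6, 250 bases before to 50 after the start, both genes on the minus strand, Cox6a1 at chr5:115348909-115349208 and Cox8b at chr7:140900397-140900696). Capitals mark GCATGCGC, a core of the NRF1 motif found here on both strands with overlap, and CCGGAAG of ETS factors, here on the opposite strand, in Cox6a1, and the E-box CAGCTG and TATAAA in Cox8b. In Cox8b, TATAAA begins 4 bases and the second CAGCTG 16 bases after the annotated start. The first CAGCTG begins before it, at -19.
Cox6a1: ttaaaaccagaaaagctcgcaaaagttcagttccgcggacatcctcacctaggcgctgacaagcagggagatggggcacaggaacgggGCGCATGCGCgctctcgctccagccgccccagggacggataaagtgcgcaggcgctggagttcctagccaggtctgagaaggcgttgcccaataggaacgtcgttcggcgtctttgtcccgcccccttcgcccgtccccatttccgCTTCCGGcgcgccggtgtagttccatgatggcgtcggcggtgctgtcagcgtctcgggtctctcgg
Cox8b: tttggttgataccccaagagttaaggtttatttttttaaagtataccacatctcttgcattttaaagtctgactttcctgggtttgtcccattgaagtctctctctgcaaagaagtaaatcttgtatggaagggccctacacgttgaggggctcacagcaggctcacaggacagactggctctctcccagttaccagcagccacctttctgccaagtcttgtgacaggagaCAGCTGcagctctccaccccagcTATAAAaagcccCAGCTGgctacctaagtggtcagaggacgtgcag
Of 83 measured nuclear members, 69 had a promoter in the table, 74 promoters in all. On both strands, GCATGCGC was in 10 of the 74 (13.5%) against 3.51% of 21262 promoters of protein-coding genes. Those 10 spanned complexes I to V: Ndufa6, Ndufa8, Ndufa11, Sdhb, Uqcr11, Uqcrc1, Cox6a1, Atp5g2, Atp5k and Atp5l. CCGGAAG was in 23.0% against 11.6%, and AAGATGGCG, the motif of YY1, which can overlap it by 3 letters, in 9.46% against 1.83%. CAGCTG was in 8.11% against 15.6% and TATAAA in 12.2% against 12.6%. A match describes these letters and is no evidence that a factor binds there.

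With age in control retinas, the mitochondrial set had a median of 0.13 (12 of 13 positive) with all libraries and -0.12 (3 of 13 positive) without the pair, so its direction turned. 3m-Control2 was the lowest 3-month control for all 13, so this turn follows from leaving it out. ND5 had 1864 and 1732 CPM in 3m-Control1 and 3m-Control3, 994 in 3m-Control2, and 1445, 1565 and 1642 in the 12-month controls. Its log2 fold change was 0.02 ± 0.20 with and -0.21 ± 0.06 without the pair (adjusted p = 0.985 and 0.05, just above the threshold, by edgeR with Benjamini-Hochberg adjustment). No mitochondrial mRNA passed by edgeR in either fit. At an unadjusted p under 0.05 there were 0 in the fit of 12 libraries, where DESeq2 and limma-voom also called 0, and 2 without the pair. DESeq2 without the pair called ND5 lower (adjusted p = 0.0183, with 7.5% of genes called), as did both tools on only the 5 remaining control libraries (3.78% and 4.08%).

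The nuclear members had a median of 0.02 with age in control (42 of 79 positive, 10 not overlapping with the older group higher and 4 lower, beside 9.21% and 8.29% of all genes), and 0.10 without the pair (61 of 79 positive). Ndufv3, a subunit of the NADH-binding arm of complex I, had 87.1, 110 and 92.7 CPM at 3 months and 119, 108 and 118 at 12 months. Atp5b had 1186, 1236 and 1181 CPM against 1267, 1339 and 1309. The groups of Atp5b did not overlap, those of Ndufv3 did through 3m-Control2, and neither passed over the 12 libraries (0.25 ± 0.09, adjusted p = 0.178, and 0.12 ± 0.06, adjusted p = 0.449, by edgeR). Without the pair, Ndufv3 (0.35 ± 0.06, adjusted p = 0.000209), Ndufb8 (0.26 ± 0.06, 0.00349), Ndufa10 (0.18 ± 0.05, 0.0410) and Atp5b (0.14 ± 0.04, 0.0407) were called higher by edgeR with Benjamini-Hochberg adjustment, where 6.25% of all genes were called. The first 3 are complex I subunits. Against the other 2 controls of 3 months, 3m-Control2 had log2 differences of 0.30 (Ndufv3), 0.40 (Ndufb8), -0.04 (Ndufa10) and 0.06 (Atp5b). The nuclear shift and these calls follow in part from leaving out the pair. DESeq2 without the pair called the same 4 and Sdha, and both tools on only the 5 remaining control libraries called Ndufv3 and Ndufb8. Cox8b was called lower in each of these fits, and also by DESeq2 on the 12 libraries (3.76% of genes called) and by both tools on only the 6 control libraries (1.24% and 2.21%).

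With age in KO retinas no member passed over the 12 libraries, where 2.37% of all genes were called by edgeR (1.54% higher and 0.832% lower), and at an unadjusted p under 0.05 there were 0 mitochondrial and 7 nuclear members (8.86%, below the 13.3% of all genes). DESeq2 on the 12 libraries (3.69% called) and edgeR on only the 6 KO libraries (3.48%) also called 0, limma-voom called 1 nuclear member (of 1319 genes in all), and DESeq2 on only the KO libraries called ND3 and COX3 higher (4.61%), both of which have a copy. The medians were 0.15 for the mitochondrial and 0.05 for the nuclear set (65 of 79 positive), and 0.05 and -0.03 (27 of 79) without the pair, so the nuclear direction turned. 12m-GliaKO1 was set apart because most nuclear members were highest in it, so this turn follows from that choice. Cox6b2, the testis isoform of a complex IV subunit, had 13.7, 12.6 and 13.4 CPM at 3 months and 11.4, 9.42 and 10.6 at 12 months. Its groups did not overlap (10.7% of all genes did not overlap with the older group higher and 11.5% lower), with -0.34 ± 0.13 (adjusted p = 0.205), and it was called lower without the pair (-0.41 ± 0.12, adjusted p = 0.0428, by edgeR, where 6.43% were called). Its counterpart Cox6b1 had 75.5, 72.5 and 78.2 CPM against 79.8, 78.9 and 68.5, with 0.01 ± 0.09. DESeq2 without the pair called Cox6b2 as well (7.46% of genes called). The highest 12-month KO value of Cox6b2, that of 12m-GliaKO1, was left out of these fits, so its calls there follow in part from that choice. On only the 5 remaining KO libraries, the members called included Cox6b2 (lower) and ND3 (higher) with edgeR (10.4%), and Cox6b2 (lower) and Sdha (higher) with DESeq2 (8.05%).

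Other genes of mitochondrial energy metabolism were taken from lists. In the KO comparisons at both ages, 0 members were called by edgeR over the 12 libraries among 49 assembly factors of the complexes, 20 other chain components, 28 genes of mitochondrial transcription and RNA handling, 15 of mitochondrial DNA maintenance, 77 of the mitochondrial ribosome, 16 of the citric acid cycle, 21 of import and carriers and 13 regulators of mitochondrial biogenesis. Their medians lay between -0.05 and 0.10 at 3 months and between -0.00 and 0.08 at 12 months. Of all genes, 0.225% were called at 3 months and 0.212% at 12 months. At an unadjusted edgeR p under 0.05 there were at most 7 members of a list at 3 months (mitochondrial ribosome) and 6 at 12 months (mitochondrial ribosome and assembly factors). The shares of all genes were 7.50% and 8.70%. Without the pair the medians lay between -0.03 and 0.07 at 3 months and between -0.05 and 0.06 at 12 months. In this fit edgeR called 1 member at 3 and 5 at 12 months, where 0.349% and 2.53% of all genes were called. These members were named after their values were seen. Esrrb was higher in KO at 3 months (0.23 ± 0.05, adjusted p = 0.0436). At 12 months Opa1, which fuses inner membranes, was higher (0.30 ± 0.07, adjusted p = 0.0167), and Ckmt1 (-0.26), Higd1a (-0.28), Mrpl34 (-0.35) and Mdh2 (-0.18) were lower. The 2 mitochondrial rRNAs had medians of 0.43 and 0.46, and of 0.14 and 0.30 without the pair. With age, Esrrb, an orphan nuclear receptor that acts on energy metabolism genes in rods, rose in control retinas from 821 ± 51.6 to 1108 ± 88.1 CPM (SD, n = 3, log2 fold change of 0.43 ± 0.08 (SE), adjusted p = 0.00215 by edgeR, where 2.11% of all genes were called). In KO it had 0.02 ± 0.08 (adjusted p = 0.945 by edgeR). The difference of its KO effects between the ages was -0.41 ± 0.11 (adjusted p = 0.371 by edgeR) over the 12 libraries. Without the pair that difference was -0.40 ± 0.07 (adjusted p = 0.00474 by edgeR, where 0.301% of all genes were called). Tfb1m, which methylates the small mitochondrial rRNA, rose in KO from 2.73 ± 0.76 to 4.96 ± 0.77 CPM (SD, n = 3, 0.86 ± 0.21 (SE), adjusted p = 0.0326 by edgeR, where 2.37% of all genes were called). Without the pair, edgeR called Esrrb, Mrpl20 and Tomm20 higher and Sco1 and Top3a lower with age in control, where 6.25% of all genes were called. With age in KO it called Coq8a and Tfb1m higher and Mrpl28, Mrpl30, Mrpl34, Mrpl42 and Phb lower, where 6.43% were called. Apart from Esrrb and Tfb1m, these were named after their values were seen.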

How the data were processed

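Retinal RNA of 12 mouse libraries was sequenced from poly(A) libraries made with a stranded kit, per the labels' protocols. Each library's file holds whole counts by Entrez gene ID, as the authors deposited them. Per the submitters' processing notes, HISAT2 2.1.0, featureCounts 1.6.4, DESeq2 1.22.1 and the build GRCm38 were used. The strand setting and the handling of multiple alignments are not stated. The authors also deposited a table of the 12-month comparison without a header, read as the mean normalized signal, the log2 fold change, its standard error, the Wald score, the p-value and the adjusted p-value. The log2 fold changes deposited by the authors are shrunken.

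Counts were analysed with edgeR 4.0.16, limma 3.58.1 and DESeq2 1.42.0 in R 4.3.3. Genes were filtered by filterByExpr, leaving 16475, and scaled by TMM. A robust quasi-likelihood model with 1 coefficient per group was fitted to the 12 libraries (8 residual degrees of freedom, biological coefficient of variation 0.11), with Benjamini-Hochberg adjustment over all genes tested and a threshold of 0.05. CPM use TMM-scaled library sizes. Differences between libraries used log2 of CPM + 0.5. Exon lengths (the union over all transcripts of a gene), base composition and shared windows come from GENCODE vM21. Symbols came from RefSeq. The fit was tested on simulated data. The members and lists were chosen with earlier results of these data known. Genes named are the 13 mitochondrial mRNAs, called members, the 2 highest of each complex, the complex IV isoforms, the 3 largest changes per comparison among members of at least 1 CPM, and called or highest genes of the lists. Not every gene this rule names is reported here. Members named only for a call without the 2 libraries or by DESeq2 (Atp5d, Cox7a2l, Cox5a, Ndufv3, Ndufb8, Ndufb10, Ndufa10) and Abca1 were added after their values were seen. The promoter motifs were also chosen after seeing the data, and a longer form of the NRF1 motif was searched before the one given.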

Additional observations from a re-analysis of the deposited data

How the results depend on the processing

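Tried instead were upper quartile or RLE scaling, scaling without the members or other-tissue genes, DESeq2, voom with weights, different filters, a threshold of 0.1, fits of only the groups compared, and leaving out libraries. Halved counts, DESeq2 on fewer libraries, smaller fits without 3m-Control2 and 12m-GliaKO1, and the mitochondrial set limited to mRNAs without a copy were chosen after seeing the data. Of the values that answer a comparison, 521 stayed and 32 moved: a count stayed within 1.5 times, and a median or level within 1 SD of its spread between libraries. That spread is wide, so medians that turned without both libraries (mitochondrial with age in control, 0.13 to -0.12, and nuclear with age in KO, 0.05 to -0.03) or shrank (mitochondrial at 3 months, 0.34 to 0.09) are among those that stayed. Nuclear calls at 3 months and with age in control include Cox6a2, which entered the test only through the 3-month controls. Under the 4 scalings the medians kept their sign, for example 0.33 to 0.34 (3 months) and 0.38 to 0.39 (12 months) for the mitochondrial set. The cause of each move below was not tested.

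Members called moved as follows. For KO against control at 3 months, nuclear calls were 2 with DESeq2 and 2 with DESeq2 on only the groups compared, and mitochondrial calls 2 (edgeR) and 2 (DESeq2) on only those groups without both libraries. At 12 months without both, edgeR gave 2 mitochondrial and 4 nuclear calls and DESeq2 5 and 8. Limited to the 12-month groups, mitochondrial calls were 5 with DESeq2, and 3 (edgeR) and 3 (DESeq2, with 1 nuclear) without both. With age in control, nuclear calls were 4 with limma-voom, 6 (edgeR) and 7 (DESeq2) without both, and 4 (edgeR) and 4 (DESeq2) in the smaller fit without both. Mitochondrial calls were then 1 in all but the edgeR fit of 10 libraries: ND5 turned from 0.02 to -0.21 in each. With age in KO, nuclear calls were 1 with limma-voom, 1 (edgeR) and 1 (DESeq2) without both, and 2 (edgeR) and 3 (DESeq2) in the smaller fit, where edgeR called 1 mitochondrial mRNA. DESeq2 on only these groups called 2. For the difference of the KO effects without both, the nuclear median was -0.10 with edgeR and with DESeq2, which called 1 nuclear member.

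Leaving out 1 library gave 1 to 2 nuclear calls at 3 months (2 without 3m-Control3), 0 of either set at 12 months, and 1 to 3 with age in control (3 without 3m-Control2, 1 without 12m-Control2, where Cox8b was lost with an adjusted p of 0.0573 by edgeR). The mitochondrial median then ranged from 0.09 to 0.52 at 3 months, 0.25 to 0.46 at 12 months, -0.12 to 0.35 with age in control and 0.05 to 0.23 with age in KO. The nuclear medians ranged from -0.12 to -0.00, -0.12 to 0.02, -0.02 to 0.09 and -0.03 to 0.11. Those of the difference of KO effects ranged from -0.10 to 0.35 and -0.04 to 0.09.

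Libraries with the same number share only that number: over 18 pairs of libraries from different groups their correlations ran from -0.08 to 0.14, 1 was over 0.1, and 4 of 12 libraries correlated best with their own number. The replicate block changed no call, and gave mitochondrial medians of 0.38 at 3 and 0.38 at 12 months and 0.20 and 0.13 with age in control and KO. With 3 libraries per group an exact permutation test could not fall below 0.1, and small members such as Cox6a2 rest on at most 137 counts.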
